A study of Mus musculus with 10 samples.

Results

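Primary granule genes encode the enzymes that neutrophil precursors pack into azurophil granules, together with early granulocytic genes made at the same progenitor stage. The group had 8 members, chosen by name from 38086 gene IDs counted in both sorted populations: Mpo, Elane, Prtn3, Ctsg, Prss57, Ms4a3, Clec12a and Igsf6. Of these, 5 encode granule enzymes, whereas Ms4a3, Clec12a and Igsf6 encode membrane proteins of the same cells.

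RNA was sequenced from mouse bone marrow cells of strain C57BL/6 at 12 months of age. The GMP KO group held 3 libraries of granulocyte-macrophage progenitors, sorted as cKit+ CD34+ FcgR+ cells that lacked lineage markers and Sca1, from Dnmt3a f/f Mx1-Cre+ mice, and the GMP CTRL group held 2 libraries of the same cells from Dnmt3a f/f Mx1-Cre- mice. The LSK KO group held 3 libraries of lineage-negative, Sca1+, cKit+ cells, which contain the blood stem cells and early multipotent progenitors, from Dnmt3a f/f Mx1-Cre+ mice, and the LSK CTRL group held 2 libraries of these cells from Dnmt3a f/f Mx1-Cre- mice. All 4 groups carried the floxed alleles and were treated with poly(I:C) in 5 injections, so an interferon stimulus was shared by KO and CTRL. Mx1-Cre is active in interferon-responding cells and not in blood cells alone, and presence of Cre and loss of Dnmt3a, a de novo DNA methyltransferase, cannot be told apart here. Each library is called by its genotype and its own number.

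Azurophil granules form at the promyelocyte stage, and transcription of their enzymes begins earlier, in progenitors committed to the granulocyte-monocyte lineage. Myeloperoxidase makes hypochlorous acid from hydrogen peroxide, and the neutrophil serine proteases are stored in active form after cathepsin C has removed an N-terminal dipeptide. The transcription factors PU.1, C/EBP, MYB and RUNX1 are known regulators of these genes.

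Elane and Prtn3 are neighbours on chromosome 10 (GRCm38), Prtn3 at chr10:79874476-79883174 and Elane at chr10:79886247-79888215, both on the plus strand and 3.1 kb apart. Prss57 lies on the minus strand at chr10:79781474-79790961, 83.5 kb from Prtn3. The remaining members each lie on a chromosome that holds no other member. Mpo lies at chr11:87793581-87804413 and Clec12a at chr6:129342691-129365303, both on the plus strand. Ctsg lies at chr14:56099881-56102574, Ms4a3 at chr19:11629496-11640851 and Igsf6 at chr7:121064067-121074572, all on the minus strand. Cfd, the next protein-coding gene beyond Elane, averaged 0.618 CPM (reads of a gene scaled to a common library size) in GMP KO and 0.357 CPM in GMP CTRL.

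RefSeq promoter windows (GRCm38.p6, 250 bases before to 50 after the start) existed for 7 of the 8 members, with Prss57 the one without. Mpo, Elane and Prtn3 are shown because they shared the PU.1 motif GAGGAAGT (both strands searched), which 3.2% of 32851 promoter windows held, and Ctsg is shown as the protease without it. Capitals mark the PU.1 motif, the MYB motif AACNGCC or the TATAAA motif on either strand, and every window is printed 5′ to 3′ on the strand of its gene.
Mpo: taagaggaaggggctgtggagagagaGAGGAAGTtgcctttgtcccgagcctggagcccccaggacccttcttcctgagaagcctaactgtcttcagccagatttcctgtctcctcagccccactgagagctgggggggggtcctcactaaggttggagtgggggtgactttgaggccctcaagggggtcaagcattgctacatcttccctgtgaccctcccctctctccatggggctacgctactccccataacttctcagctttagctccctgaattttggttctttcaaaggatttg
Elane: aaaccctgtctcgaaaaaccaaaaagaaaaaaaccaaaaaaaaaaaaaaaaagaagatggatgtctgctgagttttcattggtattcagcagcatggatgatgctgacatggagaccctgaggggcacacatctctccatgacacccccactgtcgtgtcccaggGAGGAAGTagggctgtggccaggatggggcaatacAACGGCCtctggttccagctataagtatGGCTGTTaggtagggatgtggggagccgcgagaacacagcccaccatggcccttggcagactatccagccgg
Prtn3: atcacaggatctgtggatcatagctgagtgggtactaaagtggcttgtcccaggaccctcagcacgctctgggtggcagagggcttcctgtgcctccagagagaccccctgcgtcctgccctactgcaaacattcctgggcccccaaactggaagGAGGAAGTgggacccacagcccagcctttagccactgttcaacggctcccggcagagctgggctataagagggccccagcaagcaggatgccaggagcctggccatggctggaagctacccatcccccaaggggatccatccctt
Ctsg: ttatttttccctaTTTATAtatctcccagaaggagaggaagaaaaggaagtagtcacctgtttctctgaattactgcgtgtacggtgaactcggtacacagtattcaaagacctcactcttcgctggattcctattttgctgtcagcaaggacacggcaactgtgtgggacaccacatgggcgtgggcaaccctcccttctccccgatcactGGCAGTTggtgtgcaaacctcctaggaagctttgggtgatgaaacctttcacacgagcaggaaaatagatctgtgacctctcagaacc

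The windows are chr11:87793534-87793833 (plus strand) for Mpo, chr10:79886062-79886361 (plus) for Elane, chr10:79879417-79879716 (plus) for Prtn3 and chr14:56102525-56102824 (minus) for Ctsg. With the first transcribed base of RefSeq as +1, the PU.1 motif began at -85 in Elane, at -95 in Prtn3 and at -224 in Mpo. The MYB motif occurred 2 times in Elane and once each in Ctsg and Igsf6, and 12.1% of all windows held it. The C/EBP motif TTGCNNAA occurred in Clec12a and Ms4a3 (10.8% of all windows), the RUNX motif TGTGGTT in 0 of the 7 members (5.3%), and TATAAA in Ctsg alone, on the opposite strand (13.6%). These matches describe letters in a window and were not tested as binding sites.

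Reads assigned to genes numbered 93850256 to 122658636 per GMP library and 29533371 to 30437981 per LSK library. Dnmt3a averaged 46.0 ± 23.2 CPM in GMP KO (SD, n = 3) and 129 ± 20.3 CPM in GMP CTRL (n = 2), and 54.6 ± 3.03 CPM in LSK KO and 148 ± 3.91 CPM in LSK CTRL, with every KO library below every CTRL library of its population. In edgeR's test the log2 fold change of Dnmt3a was -1.50 ± 0.42 in GMP (adjusted p = 0.300) and -1.43 ± 0.08 in LSK (adjusted p = 0.000106). Of the gate markers, all 9 LSK genes checked passed as lower in GMP in both genotypes. Over all genes tested, 30.7% passed as lower and 30.1% as higher in GMP in KO, and 28.2% and 27.3% in CTRL. The 6 GMP genes were mixed: 3 were higher in GMP in KO and 4 in CTRL, while Kit and Cd34, which LSK cells also carry, were lower in both, and the 6 summed to 1357 to 1523 CPM in the GMP libraries and 1606 to 2013 CPM in the LSK libraries. Fcgr3, an Fc receptor of the GMP gate, averaged 348 CPM in GMP KO and 412 CPM in GMP CTRL against 19.8 CPM in LSK KO and 22.2 CPM in LSK CTRL. The GMP libraries differed among themselves. Reads outside annotated genes made 15.51% of the reads listed for KO-178, 16.05% for KO-179 and 10.25% for KO-352, against 8.5% in CTRL-346 and 14.17% in CTRL-350, and 7 mature neutrophil markers summed to 501, 1214 and 50.3 CPM in the KO libraries and to 53.2 and 627 CPM in the CTRL libraries.

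All 8 members were strongly transcribed in GMP and much lower, though clearly detected, in LSK. In GMP KO they held 1.74%, 1.59% and 2.01% of all reads counted on genes, in GMP CTRL 2.24% and 1.88%, in LSK KO 0.217%, 0.281% and 0.248%, and in LSK CTRL 0.264% and 0.254%. Mpo gave 45.9% to 54.1% of the members' reads in the 5 GMP libraries and 51.1% to 55.6% in the 5 LSK libraries. In bulk RNA, fewer cells of a type and less RNA per cell cannot be told apart.

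**Figure D1:**
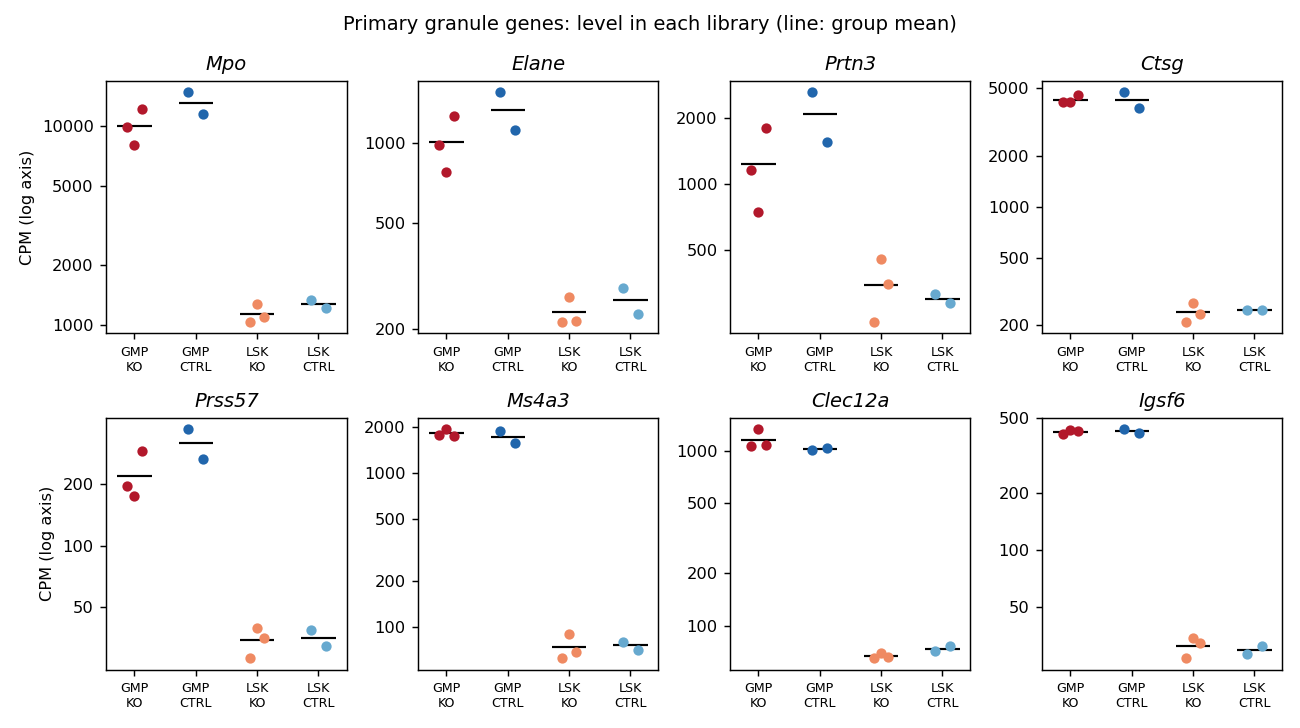
Level of each of the 8 genes in every library in CPM on a log axis, with GMP KO, GMP CTRL, LSK KO and LSK CTRL from left to right and a line at each group mean. For every gene all 5 GMP points lie above all 5 LSK points, and the spread within GMP is widest for Prtn3.

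Mpo, the peroxidase, had 9872 CPM in GMP library KO-178, 8061 CPM in library KO-179 and 12160 CPM in library KO-352, against 14790 CPM in CTRL-346 and 11500 in CTRL-350. In LSK it had 1043 CPM in KO-1327, 1283 in KO-1333 and 1102 in KO-1334, against 1342 CPM in CTRL-1326 and 1218 in CTRL-1330. KO-178 and KO-179 were below both GMP CTRL libraries while KO-352 lay between them, and the LSK groups also overlapped. Reads of Mpo and of the antisense gene Gm11505, which shares 512 exon bases with it, could have been split or shared, since no source used here states the strand setting of the counting. Gm11505 averaged 40.5 CPM in GMP KO and 62.7 CPM in GMP CTRL, against 0.345 CPM in LSK KO and 0.148 CPM in LSK CTRL.

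Elane, neutrophil elastase, had 983, 782 and 1266 CPM in the GMP KO libraries and 1554 and 1127 CPM in the GMP CTRL libraries, in the library order of Mpo, which is kept for the other genes. In LSK it had 214, 265 and 215 CPM in KO and 286 and 228 CPM in CTRL. The order of the GMP libraries was that of Mpo, with KO-179 lowest and CTRL-346 highest.

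Prtn3, proteinase 3, had 1157, 750 and 1802 CPM in GMP KO and 2606 and 1549 CPM in GMP CTRL. It had 237, 456 and 353 CPM in LSK KO and 317 and 287 CPM in LSK CTRL. It varied most of all members in GMP: its coefficient of variation was 42.9% in GMP KO and 36.0% in GMP CTRL. Prtn3 shares 159 exon bases with Plppr3 on the opposite strand, which averaged 130 CPM in GMP KO and 153.5 CPM in GMP CTRL, and 165 CPM in LSK KO and 149.6 CPM in LSK CTRL. The split of reads between the 2 genes is uncertain.

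Ctsg, cathepsin G, varied less, with a coefficient of variation of 5.57% in GMP KO and 14.4% in GMP CTRL. It had 4126, 4112 and 4529 CPM in GMP KO and 4710 and 3837 CPM in GMP CTRL, and 211, 272 and 232 CPM in LSK KO and 247.5 and 247 CPM in LSK CTRL. Prss57, the serine protease also called NSP4, had 195, 174 and 290.3 CPM in GMP KO and 370.1 and 263 CPM in GMP CTRL. In LSK Prss57 had 28.2, 39.7 and 35.5 CPM in KO and 38.7 and 32.3 CPM in CTRL. KO-178 and KO-179 were thus below both CTRL libraries for Prss57, as for Mpo, Elane and Prtn3, but not for Ctsg, where they lay between the CTRL libraries. Prss57 shares 1157 exon bases with Fstl3 on the opposite strand, which stayed below 1 CPM in every library.

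The genes of 2 membrane proteins had overlapping groups throughout. Ms4a3, a membrane protein that marks granulocyte-monocyte progenitors in mice, had 1753, 1925 and 1749 CPM in GMP KO and 1875 and 1572 CPM in GMP CTRL, and 62.8, 89.9 and 69.5 CPM in LSK KO and 80.6 and 71.6 CPM in LSK CTRL. Igsf6, a membrane protein of the immunoglobulin superfamily, had 408, 432 and 424 CPM in GMP KO and 435 and 417 CPM in GMP CTRL, and 26.9, 34.6 and 32.3 CPM in LSK KO and 28.2 and 31.4 CPM in LSK CTRL. In each population the KO and CTRL ranges of both genes crossed. Igsf6 lies within Mettl9 on the opposite strand, and the annotated exons of the 2 genes share 0 bases.

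Clec12a, an inhibitory C-type lectin receptor of myeloid cells, was the member whose KO and CTRL libraries did not overlap. It had 1064, 1324 and 1073 CPM in GMP KO, all above the 1013 and 1029 CPM in GMP CTRL, and 65.3, 69.8 and 66.2 CPM in LSK KO, all below the 71.9 and 76.5 CPM in LSK CTRL. Such separation was common: KO and CTRL libraries did not overlap for 31.6% of the genes tested in GMP and 14.8% in LSK, against 1 of 8 members in each. The size of the gap in GMP rested on KO-179, without which the fitted log2 fold change of KO over CTRL was 0.05.

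To compare genes with each other, CPM was also divided by exon length, the merged length of all annotated exons of a gene. The order of genes depends on this choice of length. By CPM alone, Mpo was above Ctsg in both GMP groups. In CPM per kb, Ctsg led in GMP KO with 4120 ± 229 CPM per kb, followed by Mpo with 2930 ± 600.2 (SD, n = 3 each). In GMP CTRL Ctsg had 4137 ± 597 CPM per kb and Mpo 3839 ± 678 (n = 2 each), and there the libraries' ranges of the 2 genes overlapped. By the same measure these were the 5th (Ctsg) and 6th (Mpo) highest of 37607 genes with an annotated length, in KO and in CTRL alike.

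Behind them in GMP KO came Elane with 1027, Ms4a3 with 960 and Prtn3 with 714 CPM per kb, whose neighbours in the order had overlapping libraries. Clec12a with 209 and Igsf6 with 194 CPM per kb overlapped too, and Prss57 was lowest with 77.3. In GMP CTRL the order was Elane with 1362, Prtn3 with 1200 and Ms4a3 with 915 CPM per kb, again overlapping neighbour by neighbour, and then Igsf6 with 196, Clec12a with 185 and Prss57 with 111, which lay apart. The membrane protein gene Ms4a3 thus stood among the major enzymes in GMP, and the protease gene Prss57 was lowest in both genotypes.

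In LSK the order changed at the top. Mpo led with 334 CPM per kb in LSK KO and 374 in LSK CTRL, apart from Elane with 235 in LSK KO and 261 in LSK CTRL. Ctsg followed with 231 CPM per kb in LSK KO and 239 in LSK CTRL and overlapped with Elane in both groups. Prtn3 came next with 201 CPM per kb in LSK KO and 174 in LSK CTRL, and Ms4a3 stood well below with 39.3 in LSK KO and 40.4 in LSK CTRL. Igsf6, Clec12a and Prss57 formed the bottom with 12.1 to 14.4 CPM per kb and overlapped neighbour by neighbour in both groups. The 4 major enzymes were among the 143 highest genes in LSK by this measure, whereas Clec12a, Igsf6 and Prss57 ranked 3502nd or lower.

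Between the populations, every member was higher in GMP. In edgeR's quasi-likelihood test all 8 passed a Benjamini-Hochberg adjusted p of 0.05 in the KO comparison, where 30.1% of 18836 genes were called higher in GMP and 30.7% lower, and all 8 in the CTRL comparison, where 27.3% were called higher and 28.2% lower. The largest adjusted p was 0.000708, for Prtn3 in KO. The labels do not say that each library came from its own animal, so p-values measure only the spread between these libraries. The members' median log2 fold change was 3.44 in KO and 3.57 in CTRL, beside -0.08 in KO and -0.12 in CTRL over all genes tested. Population coincides with sequencing depth, with the annotation used for counting and with the table, which cannot be told apart from it. Sex, read from Xist and Y-linked counts, was male in all GMP libraries and mixed in LSK. It was not a term in the comparisons of GMP with LSK.

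Ms4a3 had the largest fold, a log2 of 4.61 ± 0.15 (SE) in KO and 4.50 ± 0.18 in CTRL. Ctsg followed with 4.16 ± 0.12 in KO and 4.11 ± 0.15 in CTRL. Clec12a had 4.10 ± 0.10 in KO and 3.78 ± 0.13 in CTRL, and Igsf6 had 3.75 ± 0.11 in KO and 3.84 ± 0.13 in CTRL. Mpo had 3.13 ± 0.16 in KO and 3.36 ± 0.20 in CTRL, and Prss57 had 2.67 ± 0.22 in KO and 3.16 ± 0.27 in CTRL. The smallest folds were those of the neighbours Elane, with 2.13 ± 0.19 in KO and 2.38 ± 0.24 in CTRL, and Prtn3, with 1.83 ± 0.33 in KO and 2.78 ± 0.42 in CTRL. The 95% confidence intervals of Elane and Prtn3 in KO, 1.70 to 2.55 and 1.10 to 2.55, lay below the interval of Ms4a3, 4.28 to 4.94.

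**Figure D2:**
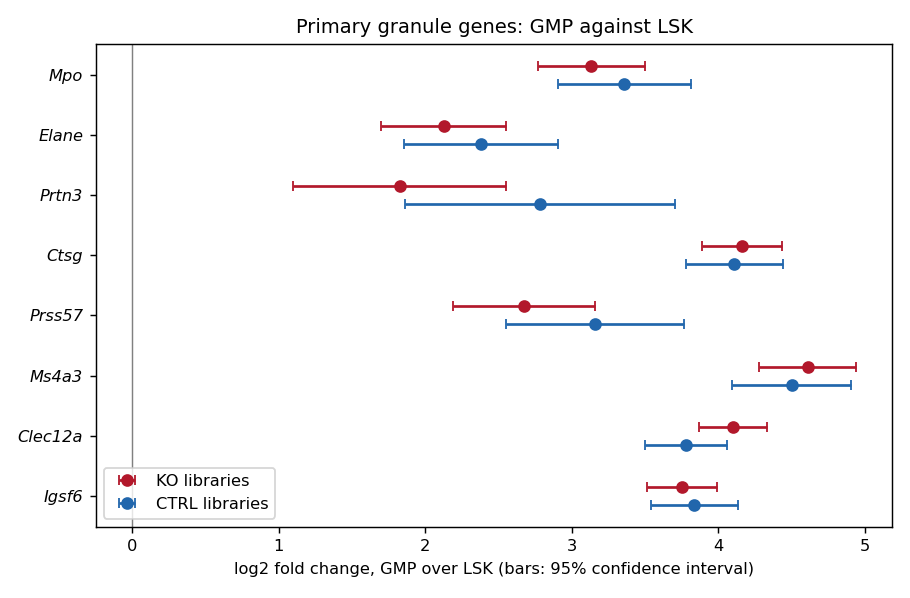
Fitted log2 fold change of GMP over LSK for each gene, KO libraries above CTRL libraries, with 95% confidence intervals from edgeR's quasi-likelihood fit. All intervals lie above 0, Ms4a3 is highest and Elane and Prtn3 are lowest.

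Ratios of read counts within a library do not depend on scaling between libraries. They were looked at after the levels were known and carry no test. The ratio of Elane to Mpo was nearly constant within a population, 0.0996, 0.0970 and 0.104 in GMP KO and 0.105 and 0.0980 in GMP CTRL, against 0.205, 0.207 and 0.195 in LSK KO and 0.213 and 0.187 in LSK CTRL. Elane and Mpo thus kept one proportion in the 5 GMP libraries although their levels in GMP spanned 8061 to 14790 CPM for Mpo.

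Ctsg did not keep proportion with Mpo. The ratio of Mpo to Ctsg was 2.39, 1.96 and 2.69 in GMP KO and 3.14 and 2.997 in GMP CTRL, and 4.96, 4.72 and 4.75 in LSK KO and 5.42 and 4.93 in LSK CTRL. Every GMP KO library was below both GMP CTRL libraries. Of the 7 ratios of a member to Ctsg, 4 separated in this way, those of Mpo, Elane, Prtn3 and Prss57, and the 3 of Ms4a3, Clec12a and Igsf6 overlapped. The 4 share Ctsg as denominator and are not separate evidence, and the ratio to Ctsg did not overlap between KO and CTRL for 29.7% of the genes tested in GMP. For Prtn3 to Ctsg the gap was narrow, with 0.398 in KO-352 and 0.404 in CTRL-350. Prtn3 to Elane showed no separation, with 1.177, 0.959 and 1.42 in GMP KO and 1.68 and 1.38 in GMP CTRL.

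**Figure D3:**
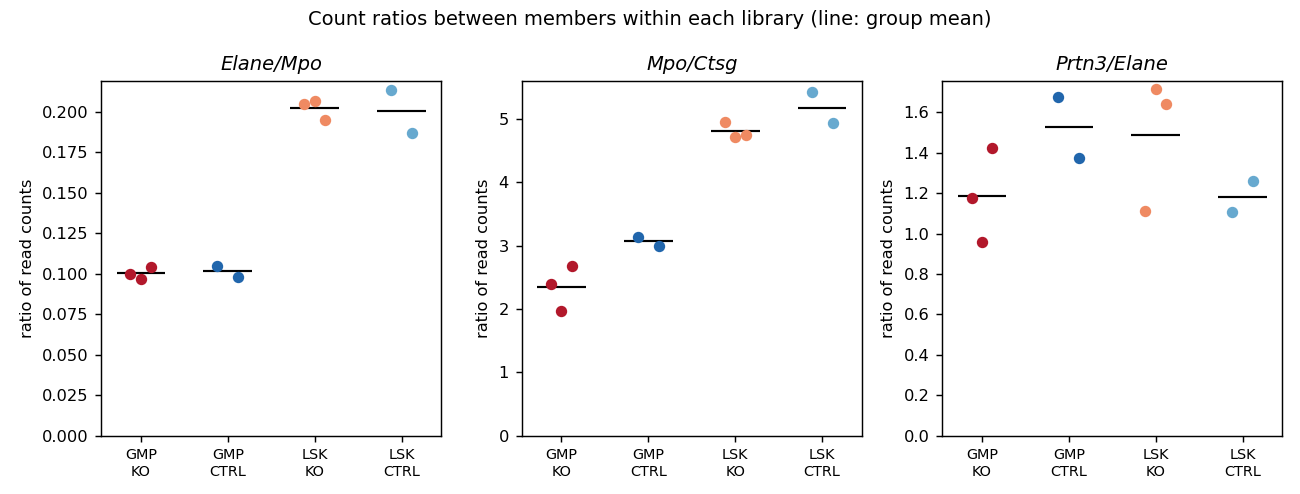
Ratio of read counts of Elane to Mpo, Mpo to Ctsg and Prtn3 to Elane in each library, with GMP KO, GMP CTRL, LSK KO and LSK CTRL from left to right, a line at each group mean and axes from 0. Elane to Mpo separates the populations, at 0.0970 to 0.105 in GMP and 0.187 to 0.213 in LSK, and Mpo to Ctsg is lower in the 3 GMP KO libraries than in the 2 GMP CTRL libraries.

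Within GMP, the difference between KO and CTRL passed the test for none of the members. In edgeR's quasi-likelihood test 0 of 8 members passed an adjusted p of 0.05, where 0.0347% of 17290 genes did, and 0 of 8 had an unadjusted p under 0.05, where 13.8% of all genes did. With 8 members these counts lie near the background. DESeq2 and limma-voom also called 0 members. The members' median log2 fold change was -0.22, beside 0.01 over all genes tested.

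The members fell into 2 sets by their values. For the first set the fold changes were negative but wide: Prtn3 had a log2 fold change of -0.77 ± 0.37 (SE; 95% interval -1.65 to 0.11, adjusted p = 0.401), Prss57 -0.54 ± 0.25 (-1.13 to 0.05, adjusted p = 0.387), Elane -0.42 ± 0.23 (adjusted p = 0.438) and Mpo -0.40 ± 0.20 (adjusted p = 0.403). For the second set they were near 0 and narrower: Ctsg had -0.02 ± 0.13 (-0.33 to 0.29), Igsf6 -0.03 ± 0.10 (-0.27 to 0.21), Ms4a3 0.06 ± 0.13 (-0.24 to 0.36) and Clec12a 0.16 ± 0.13 (-0.15 to 0.48), with adjusted p between 0.588 and 0.962. The signs of Ctsg and Igsf6 turned positive when libraries were scaled by total gene counts. This grouping was made after the values were seen.

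The first set moved with individual libraries. Relative to the mean of the GMP CTRL libraries on the log2 scale, Prtn3 was at -0.80 in KO-178, at -1.42 in KO-179 and only at -0.16 in KO-352, and Mpo was at -0.40, -0.69 and -0.10 in the same libraries. Elane was at -0.43, -0.76 and -0.06 and Prss57 at -0.68, -0.84 and -0.11, so KO-352 lay within the range of the CTRL libraries for all 4 genes. KO-352 was also the KO library with the lowest Dnmt3a, at 20.5 CPM, against 51.7 CPM in KO-178 and 65.9 CPM in KO-179. A link between the level of Dnmt3a and the values of these genes was not tested.

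Leaving out single libraries moved several of these values by over 1.5 times. Without CTRL-346 the log2 fold changes were -0.19 for Mpo, -0.15 for Elane, -0.32 for Prtn3 and -0.25 for Prss57. Without KO-179 they were -0.27 for Mpo, -0.27 for Elane, -0.51 for Prtn3 and -0.40 for Prss57. Without CTRL-350 Elane was at -0.66 and Mpo at -0.60, and without KO-352 the lowest adjusted p of any member was reached, 0.0765 for Prss57 at a log2 fold change of -0.79.

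**Figure D4:**
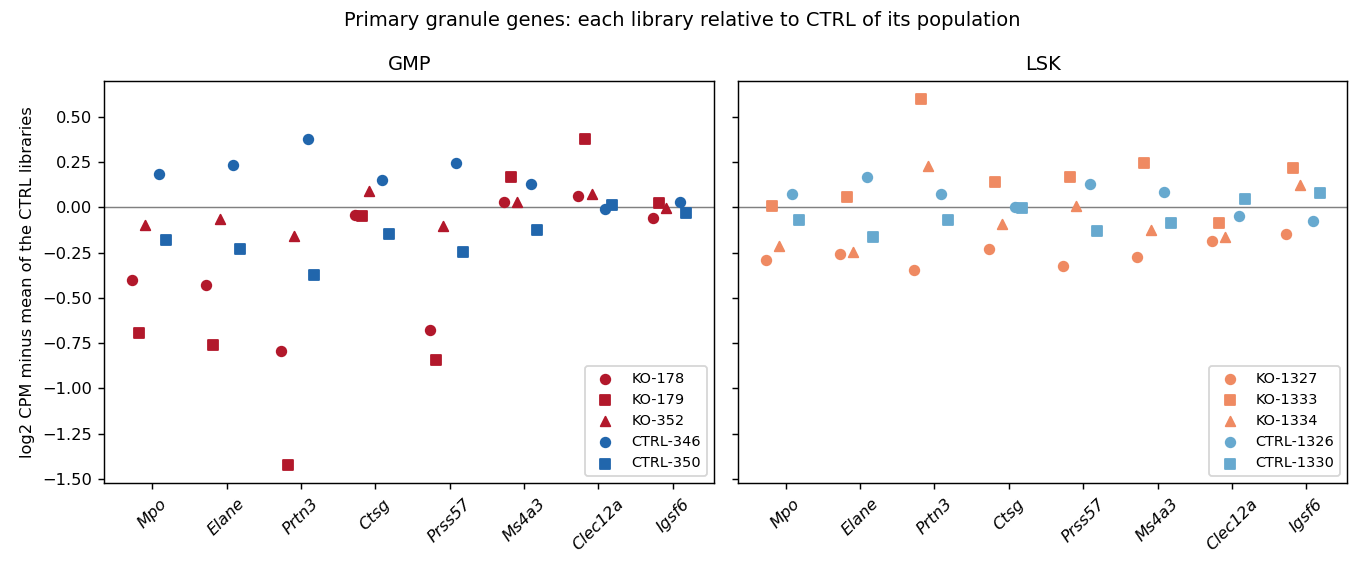
Log2 CPM of each gene in each library minus the mean of the CTRL libraries of its population, for GMP on the left and LSK on the right, with KO libraries left of CTRL libraries at each gene. In GMP, KO-179 and KO-178 lie lowest for Mpo, Elane, Prtn3 and Prss57, with Prtn3 in KO-179 at -1.42, whereas Ctsg, Ms4a3 and Igsf6 stay near 0.

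The share of reads outside annotated genes moved with the first set. Its order over the 5 GMP libraries, lowest in CTRL-346, then KO-352, CTRL-350, KO-178 and KO-179, was the reverse of the order of Mpo, of Elane, of Prtn3 and of Prss57. With that share as a term in the fit the log2 fold changes were -0.21 for Mpo, -0.18 for Elane, -0.38 for Prtn3 and -0.27 for Prss57, and 0.09 for Ctsg. The 7 mature neutrophil markers, none at 0 in any GMP library, were high in KO-179, CTRL-350 and KO-178 and low in KO-352 and CTRL-346. The part of either in the values of the members was not tested.

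**Figure D5:**
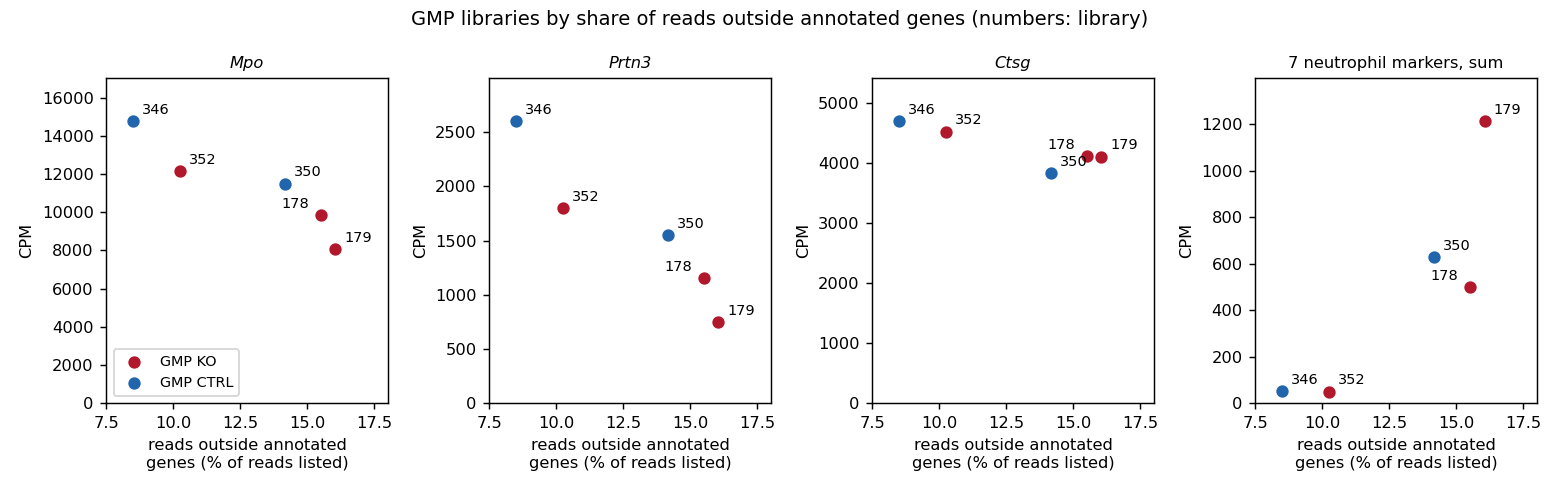
Level in CPM of Mpo, Prtn3 and Ctsg and the summed CPM of 7 mature neutrophil markers in the 5 GMP libraries, against the percentage of listed reads outside annotated genes, with axes in CPM from 0 and points labelled by library number. Mpo and Prtn3 descend from CTRL-346 at 8.5% to KO-179 at 16.05%, and Ctsg stays between 3837 and 4710 CPM.

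Summed markers of other lineages also differed between the GMP groups. The summed level of 9 monocyte and macrophage markers was 2302 to 2903 CPM in GMP KO and 1496 to 1870 CPM in GMP CTRL, with 1 marker at 0 in KO-352. Singly, 3 of the 9 had all KO libraries above CTRL, 2 had all below and 4 overlapped, and 0 passed edgeR's test. The summed level of 12 mast cell, basophil and eosinophil markers was 1068 to 1377 CPM in GMP KO and 1737 and 4720 CPM in GMP CTRL. Of the 11 tested, 6 had all KO libraries below CTRL and 5 overlapped, while 31.6% of all genes did not overlap. Hdc was the 1 marker that passed edgeR's test (log2 fold change -1.05 ± 0.10, adjusted p = 0.0414), where 0.0347% of all genes did. The part of these lineages in the values of the members was not tested.

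Within LSK, the fold changes between KO and CTRL were small for every member. In edgeR's quasi-likelihood test 0 of 8 members passed, where 0.0232% of 17238 genes did, and 0 of 8 had an unadjusted p under 0.05, where 2.83% of all genes did. DESeq2 and limma-voom called 0 members here too. The log2 fold changes ran from -0.16 ± 0.12 for Mpo to 0.21 ± 0.21 for Prtn3, all with an adjusted p of 1.0, and the median was -0.04 beside 0.00 over all genes. For Mpo the 95% interval was -0.43 to 0.12, for Ctsg -0.28 to 0.19 and for Clec12a -0.31 to 0.04. The sign for Prtn3 rested on KO-1333, without which the value was -0.01. LSK libraries were of mixed sex, and with sex as a term 0 members passed.

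The KO effect in GMP minus that in LSK was tested directly in a fit of all 10 libraries. In this edgeR test 0 of 8 members passed an adjusted p of 0.05, where 0.0265% of 18836 genes did, and 0 had an unadjusted p under 0.05, where 10.1% of all genes did. DESeq2 and limma-voom called 0. Prtn3 had the largest difference, a log2 of -0.96 ± 0.50 (95% interval -2.07 to 0.16, adjusted p = 0.535), and Clec12a had 0.32 ± 0.15 (adjusted p = 0.50). The remaining members lay between -0.49 for Prss57 and 0.11 for Ms4a3.

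The machinery that processes and packs granule proteins was described from a list of 9 genes. In edgeR's test 8 of 9 were higher in GMP than LSK in KO and 7 of 9 in CTRL. Of all genes tested, 30.1% were called higher in GMP in KO and 27.3% in CTRL. Cst7, a cystatin that inhibits cathepsin C, led the list with a log2 fold change of 3.90 ± 0.17 in KO and 3.73 ± 0.20 in CTRL. Srgn, the proteoglycan core that retains granule proteases, averaged 1959 CPM in GMP KO and 2115 CPM in GMP CTRL, against 434 CPM in LSK KO and 478 CPM in LSK CTRL. Between KO and CTRL 0 of 9 passed in GMP and 0 of 9 in LSK, with medians of 0.07 in GMP and -0.06 in LSK.

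The genes with the smallest p in that list pointed in opposite directions in GMP. Calr, the endoplasmic reticulum chaperone calreticulin that binds newly made myeloperoxidase, had 2797, 2811 and 3876 CPM in GMP KO and 5612 and 4657 CPM in GMP CTRL, with a log2 fold change of -0.71 ± 0.18 and an adjusted p of 0.271. Ctsc, the protease that activates Elane, Prtn3 and Ctsg, had 258, 209 and 219 CPM in GMP KO and 160.3 and 168 CPM in GMP CTRL, with 0.47 ± 0.12 and an adjusted p of 0.284. KO and CTRL libraries did not overlap for either gene, as for 31.6% of all genes tested in GMP, and neither passed the test.

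Of 10 transcription factors of granulocyte genes, 9 were higher and 1, Runx1, lower in GMP than LSK in both genotypes. Over all genes tested 30.1% were called higher and 30.7% lower in KO, and 27.3% higher and 28.2% lower in CTRL. Between KO and CTRL 0 of the 10 factors passed in GMP and in LSK. Cebpe, needed for the later granule stages, had 27.6, 27.99 and 45.5 CPM in GMP KO and 83.8 and 71.1 CPM in GMP CTRL (log2 fold change -1.21 ± 0.23, adjusted p = 0.255). Gfi1, a repressor needed for neutrophil development, had 237, 228.5 and 222 CPM in GMP KO and 169 and 163 CPM in GMP CTRL (0.45 ± 0.10, adjusted p = 0.264). In LSK, Klf4 was at -0.84 ± 0.19 (adjusted p = 0.926), and Irf8 was at -0.38 ± 0.15 (adjusted p = 1.0) on the log2 scale, both being factors of the monocyte side. Cebpa, the factor of the C/EBP family that acts at the GMP stage, averaged 206 CPM in GMP KO and 252 CPM in GMP CTRL.

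Further genes of early granulocytes were mostly higher in GMP as well. Of 14 other primary granule and early granulocytic genes, 13 were higher in GMP in KO and 12 in CTRL. Between KO and CTRL 0 of them passed in either population, and their medians there were -0.12 in GMP and -0.11 in LSK. Over all genes tested 30.1% were called higher and 30.7% lower in GMP in KO, and 27.3% higher and 28.2% lower in CTRL. Nkg7, a granule membrane protein, had a log2 fold change of -0.53 ± 0.16 in GMP and Lyz2, lysozyme, -0.34 ± 0.08 in LSK, with adjusted p of 0.306 and 0.926. Of 13 lysosomal hydrolases also stored in azurophil granules, 9 were higher in GMP in KO, 1 was lower, and 9 were higher in CTRL. Their fold changes in GMP KO against CTRL were negative for 12 of 13 with a median of -0.29, and 0 passed. Over all genes tested in GMP 51.2% were positive, with a median of 0.01. Hexa, a beta-hexosaminidase subunit, had -0.62 ± 0.18 (adjusted p = 0.301).

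The later secondary granule and mature neutrophil genes had mostly positive values in GMP. Of 18 such genes 17 had a positive log2 fold change in GMP KO against CTRL, with a median of 0.96, and 0 passed edgeR's test. Over all genes tested in GMP 51.2% were positive, with a median of 0.01. The libraries overlapped for 16 of the 18, and KO and CTRL did not overlap for 31.6% of all genes tested in GMP. With library sizes from the fit of the GMP libraries alone, the list summed to 3203 CPM in KO-178, 5893 CPM in KO-179 and 998 CPM in KO-352. On the same scale it summed to 1223 CPM in CTRL-346 and 2804 CPM in CTRL-350. KO-178 lay above both CTRL libraries for 12 genes and KO-179 for 17, whereas KO-352 did so for 2 and lay below both for 8. Padi4, which citrullinates histones, was 1 of the 2 without overlap and, unlike most of the list, was lower in GMP than in LSK. It had 24.8, 22.3 and 29.5 CPM in GMP KO and 8.69 and 10.6 CPM in GMP CTRL (log2 fold change 1.39 ± 0.18, adjusted p = 0.169). In LSK 14 of 17 tested had negative values, with a median of -0.26, and 0 passed. Over all genes tested in LSK 50.8% were positive.

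Among named genes averaging at least 10 CPM over the 10 libraries, predicted genes left out, the pattern most like the mean of the members was sought by the root mean square difference of log2(CPM + 0.5), each gene centred on its own mean. Nucb2 was nearest at 0.104, followed by Rps19-ps6 at 0.120, Anxa3 at 0.141, Rgcc at 0.145 and Rpl35 at 0.161. Rps19-ps6 is a pseudogene that can share reads with other copies. Of the members themselves Mpo was closest to their mean at 0.118 and Prtn3 farthest at 0.679. Nucb2 averaged 92.7 CPM in GMP KO and 109 CPM in GMP CTRL, against 8.43 CPM in LSK KO and 9.07 CPM in LSK CTRL.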

How the data were processed

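Total RNA libraries made with a stranded kit after ribosomal RNA removal were sequenced from sorted cells, per the labels' protocols. The authors deposited read counts per Ensembl gene in 1 table for GMP and 1 for LSK, made on mm10 (GRCm38) with HTSeq 0.5.3p3, STAR, DESeq2 1.4.5 and DESeq 1.18.0, per the submitters' processing notes, which give no roles. For the annotation release and the strand setting, the sources used here give nothing. The deposited normalized signal equals counts divided by 1 size factor per library, and served to recover those factors as an alternative. Lines of the GMP table that name no gene entered neither library sizes nor tests; of the reads listed, 8.5% to 16.05% fell outside annotated genes, 26.3% to 28.99% aligned to several places and 1.14% to 1.32% were ambiguous. Samples were grouped by their titles, which for KO-352 conflict with its description, whose file names are those of LSK; its title, cell type and table column say GMP.

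Counts were tested with edgeR 4.0.16 in R 4.3.3 (filterByExpr with a minimum count of 10, TMM, glmQLFit and glmQLFTest, two-sided, Benjamini-Hochberg over all genes tested). GMP and LSK were fitted apart, with 3 residual degrees of freedom each. GMP against LSK and the difference of KO effects came from 1 fit of the 10 libraries over 38086 shared gene IDs, with 6 residual degrees of freedom. Printed CPM use its TMM library sizes, except the sums over the 18 secondary granule and mature neutrophil genes, which use those of the GMP fit. All 8 members passed the filter in every fit. SE is the absolute log2 fold change over the root of the F statistic. Exon lengths and positions are from GENCODE (GRCm38), 1-based. DESeq2 1.42.0, limma-voom (limma 3.58.1), other scalings, no filter, each library left out, a fit of all 10 libraries, and models with sex or with the percentage of reads outside genes were alternatives. The edgeR test was also run on simulated counts with known changes, drawn with the same dispersion for every gene. Since the spread of these libraries differs between genes, the simulation does not measure how the test performs on them. Members, lists and motifs were chosen with earlier results of these data known. Named genes are all members, up to 2 genes per list by smallest p in each KO fit, any gene of the processing, gate and neighbour lists, and the 5 nearest in pattern; Runx1 and Cebpa were named after their values were seen.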

Additional observations from a re-analysis of the deposited data

Results flagged for a closer look

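Clec12a was the 1 member whose KO effects ran in opposite directions in the 2 populations for every library. All 3 GMP KO libraries were above both GMP CTRL libraries, and all 3 LSK KO libraries were below both LSK CTRL libraries. Separation of KO from CTRL was common, with 31.6% of the genes tested not overlapping in GMP and 14.8% in LSK. Without KO-179 the fitted log2 fold change of Clec12a in GMP was 0.05. The KO effect in GMP minus that in LSK was 0.32 ± 0.15 on the log2 scale (SE), with an unadjusted p of 0.0519 and an adjusted p of 0.50 in edgeR's quasi-likelihood test, so the difference did not pass. Over the alternatives it ranged from 0.20 to 0.37, with adjusted p between 0.22 and 0.753.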

How the results depend on the processing

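All 8 members passed the test in both comparisons of GMP with LSK under the 16 alternatives tried for each, and 0 passed between KO and CTRL or for the difference under any alternative. Of 616 fold changes of members recomputed, 22 turned sign, 19 of them with 1 library left out, and 0 gained or lost a call. The others were Ctsg in GMP KO against CTRL, at 0.06 with total gene counts and 0.09 with the outside-gene share in the model, and Igsf6 at 0.05 with total gene counts. Scaling by total gene counts moved the median of all genes in GMP against LSK to -0.46 in KO and -0.53 in CTRL, with Ctsg, for example, at 3.78 and 3.69. Counts of all genes called depended on the method. In GMP KO against CTRL, 6 genes became 703 with DESeq2, 0 with limma-voom, 50 without the filter, 182 in the fit of all 10 libraries and 203 with the outside-gene share in the model. In LSK, 4 became 20, 27 and 0 with DESeq2, no filter and the fit of all 10. For the difference, 5 became 221 with DESeq2, 2 with limma-voom, 38 without the filter and 2 with sex as a term; the cause was not tested. With 1 library left out, genes called ranged from 1 to 172 in GMP, 3 to 11 in LSK, 9909 to 11426 and 8044 to 10594 for GMP against LSK in KO and CTRL, and 1 to 513 for the difference. Members that turned sign with 1 library left out ranged as follows. In GMP KO against CTRL, Ctsg ran from -0.19 to 0.16, Ms4a3 from -0.09 to 0.21 and Igsf6 from -0.09 to 0.02. In LSK, Elane ran from -0.28 to 0.01, Prtn3 from -0.01 to 0.42, Ctsg from -0.14 to 0.03, Prss57 from -0.14 to 0.09, Ms4a3 from -0.18 to 0.07 and Igsf6 from -0.02 to 0.17. For the difference, Elane ran from -0.51 to 0.01, Ctsg from -0.13 to 0.22 and Ms4a3 from -0.05 to 0.27. No paired analysis was possible because no 2 groups have a replicate number in common. With 2 CTRL libraries per population, intervals for KO against CTRL are wide.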
